A study of Homo sapiens with 4 samples.

Results

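The transcription factors that give B cells their identity were examined in Nalm-6, a pre-B leukemia line of human origin. The members were 10 genes, PAX5, EBF1, TCF3, IKZF1, IKZF3, FOXO1, POU2AF1, BCL6, IRF4 and SPI1, of 18203 genes named on the arrays. They were found by the RefSeq accession of each probe, which gave 15 of 41000 probes. Of these genes, 5 had 2 probes and 5 had 1 probe, and each probe was printed at 1 spot.

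There were 4 groups of Nalm-6 cells with 1 array each. They were wild-type cells (WT), a line labelled knockout of actin-related protein 8 (Arp8 KO), a line labelled knockout of actin-related protein 5 (Arp5 KO) and cells labelled Arp8 overexpression (Arp8 OE). Both proteins belong to INO80, a chromatin remodeling complex driven by ATP. Arp5 KO is described in the methods as 1 established line in which gene targeting disrupted both alleles. The paper reports slightly slower growth of Arp5 KO than of wild-type cells. For Arp8 it cites earlier work in which conditional knockout was lethal to the cells. The protocol, titles and design give heme, an inducer of oxidative stress, at 20 uM for 12 hours in all groups. The treatment characteristic of the knockouts instead reads no heme, and among the source names only that of Arp5 KO does. Genotype and treatment therefore cannot be told apart in the knockouts. With 1 array each, there was no biological replicate and no test could be made.

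In the B lineage these factors work as a hierarchy. TCF3 (the E proteins E12 and E47), EBF1 and FOXO1 open the programme in early progenitors, and PAX5 then commits the cells and represses genes of other lineages. The Ikaros proteins IKZF1 and IKZF3, together with IRF4 and SPI1, regulate the pre-B stage, POU2AF1 is a coactivator that works with octamer-binding proteins, and BCL6 is a zinc finger repressor that restrains the p53 response in pre-B cells and is required later for germinal centres.

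Levels are given as log2 of the processed signal over the 75th percentile of the same array, and differences as log2 differences from WT unless another array is named. Levels of different probes were not compared with each other. The 75th percentile lay between 647.4 and 739.6 units of intensity. Of the 15 probes, 14 were well above background on all arrays, for 9 of the 10 genes. The error of a difference could be taken only from probes printed 10 times on an array. It was 0.08 (SD) for levels above 0, 0.10 for levels between -3 and 0 and 0.21 for levels below -3, and it covers variation between spots of an array, not between cultures. A further measure of error came from the 3044 genes with 2 measured probes. The median gap between the differences of such probes was 0.18 in Arp8 KO and 0.11 in Arp5 KO, and the 95th percentile in Arp8 KO was 0.84.

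The labels were checked first. ACTR5, the gene of Arp5, was 19.3-fold lower in Arp5 KO, whereas ACTR8, the gene of Arp8, was only 1.44-fold and 1.60-fold lower in Arp8 KO on its 2 probes and still well above background there. With the label Arp8 OE, ACTR8 lay within 0.02 of WT on both. The labels Arp8 KO and Arp8 OE are therefore used only as names, and where the ACTR8 probes lie relative to the disrupted part is not known here. HMOX1, the heme-induced gene of heme oxygenase-1, was at -2.91 in Arp8 KO, -2.98 in Arp5 KO and -2.05 in Arp8 OE. All 8 B-precursor marker genes were well above background on every array, with a summed signal between 272 (Arp8 KO) and 353 (Arp8 OE) times the 75th percentile. A sum mostly follows the brightest probes of its list and does not show single markers. In Arp8 KO, 2 of the 11 B-precursor marker probes were over 2-fold below WT (CD22 and VPREB1) and 1 above (DNTT). Of all probes tested, 7.71% were past 2-fold there. Of the 8 T cell markers 2 to 3 were well above background on an array, with GATA3 and TCF7 on every array and CD3D, CD3G, CD2, CD28 and TRAT1 on none, and the summed signal lay between 0.393 and 0.561. Of the 8 myeloid markers 2 to 3 were, with CD14 and 1 of 3 CEBPA probes on every array and MPO, ELANE, ITGAM and CSF3R on none (summed 11.6 to 15.3). Of the 5 erythroid markers 1 to 2 were, with EPOR on every array and GATA1, KLF1 and HBB on none (0.474 to 0.848). Of the 5 plasma cell markers 3 to 4 were, with XBP1, SDC1 and JCHAIN on every array and PRDM1 on none (108 to 145).

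BCL6 was the member that differed most. Its single probe (A_23_P57856) had a level of 2.13 in WT, 1.03 in Arp8 OE, 1.19 in Arp5 KO and -0.61 in Arp8 KO. The corresponding processed signals were 3228, 1326, 1691 and 429.5. WT was the highest of the 4 arrays and Arp8 KO the lowest, with the others close together. Against WT this was 6.70-fold lower in Arp8 KO, a log2 difference of -2.74, and 2.14-fold lower in Arp8 OE, at -1.10. In Arp5 KO the difference was -0.94, or 1.92-fold, just inside 2-fold. Each of these was over 3 times the SD between spots. Of 22400 probes well above background in both Arp8 KO and WT, 20 had a lower difference than BCL6. The BCL6 probe had 1 adjacent spot that was bright on the Arp5 KO array alone, and its part in the values was not tested. In RNA from a whole culture, fewer cells of a type and less RNA per cell cannot be told apart.

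The reference array mattered to the BCL6 values. Against Arp8 OE, BCL6 was at -1.64 in Arp8 KO (3.13-fold lower) but at 0.16 in Arp5 KO. Against Arp5 KO, the Arp8 KO level was 3.49-fold lower. Arp8 KO was thus over 2-fold below each of the other arrays, while Arp5 KO and Arp8 OE were not past 2-fold of each other.

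The sequence around the BCL6 transcription starts is shown because BCL6 had the largest difference among the members. RefSeq (GRCh38.p14) lists 2 starts on the minus strand, and each window of 300 bases runs from 250 before the start to 50 after it. Motifs were searched on both strands, and capitals mark matches to TTCNNNGAA, the palindromic motif of STAT factors.
BCL6, chr3:187745419-187745718: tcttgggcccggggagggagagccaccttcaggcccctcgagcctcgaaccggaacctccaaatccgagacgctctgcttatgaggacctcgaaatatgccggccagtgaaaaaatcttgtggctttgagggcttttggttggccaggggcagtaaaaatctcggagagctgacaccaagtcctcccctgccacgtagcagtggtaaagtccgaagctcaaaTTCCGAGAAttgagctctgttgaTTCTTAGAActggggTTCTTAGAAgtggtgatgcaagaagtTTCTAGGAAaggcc
BCL6, chr3:187736452-187736751: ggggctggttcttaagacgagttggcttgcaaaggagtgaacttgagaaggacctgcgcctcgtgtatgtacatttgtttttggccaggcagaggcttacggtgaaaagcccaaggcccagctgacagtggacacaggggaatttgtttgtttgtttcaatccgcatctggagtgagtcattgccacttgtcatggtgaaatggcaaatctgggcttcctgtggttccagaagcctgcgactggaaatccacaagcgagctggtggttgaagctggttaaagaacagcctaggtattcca
The window of the upstream start held 4 STAT matches, whose first bases lay at -28, -5, 10 and 36 from the start. At least 1 such match was present in 7.66% of 35116 promoter windows, and 7 windows of 6 genes held 4 or more. The window of the other start held none. It had 4 matches to the E-box CANNTG, to which TCF3 binds, and 5.58% of all windows had 4 or more. Neither window matched the antioxidant response element TGACNNNGC (13.3% of all windows) or the YY1 motif CCATNTT (15.6%). A match is a description of the letters, and binding was not measured. Of the members, 7 had promoter windows in the table, 10 windows in all, and among these STAT matches occurred in the upstream BCL6 window only. There was no window for POU2AF1, SPI1 or IKZF3, so their promoters were not searched.

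POU2AF1 was the other member past 2-fold. Its level was 5.06 in WT, 5.10 in Arp8 OE, 4.55 in Arp5 KO and 3.89 in Arp8 KO. WT and Arp8 OE were nearly equal, Arp5 KO lay below both and Arp8 KO lowest. The difference from WT was -1.17 in Arp8 KO (2.24-fold lower) and -0.50 in Arp5 KO, each over 3 times the SD between spots, whereas the 0.04 of Arp8 OE was within it. Against Arp8 OE, POU2AF1 was at -1.20 in Arp8 KO and -0.54 in Arp5 KO. No spot adjacent to this probe was bright on 1 array alone.

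**Figure D1:**
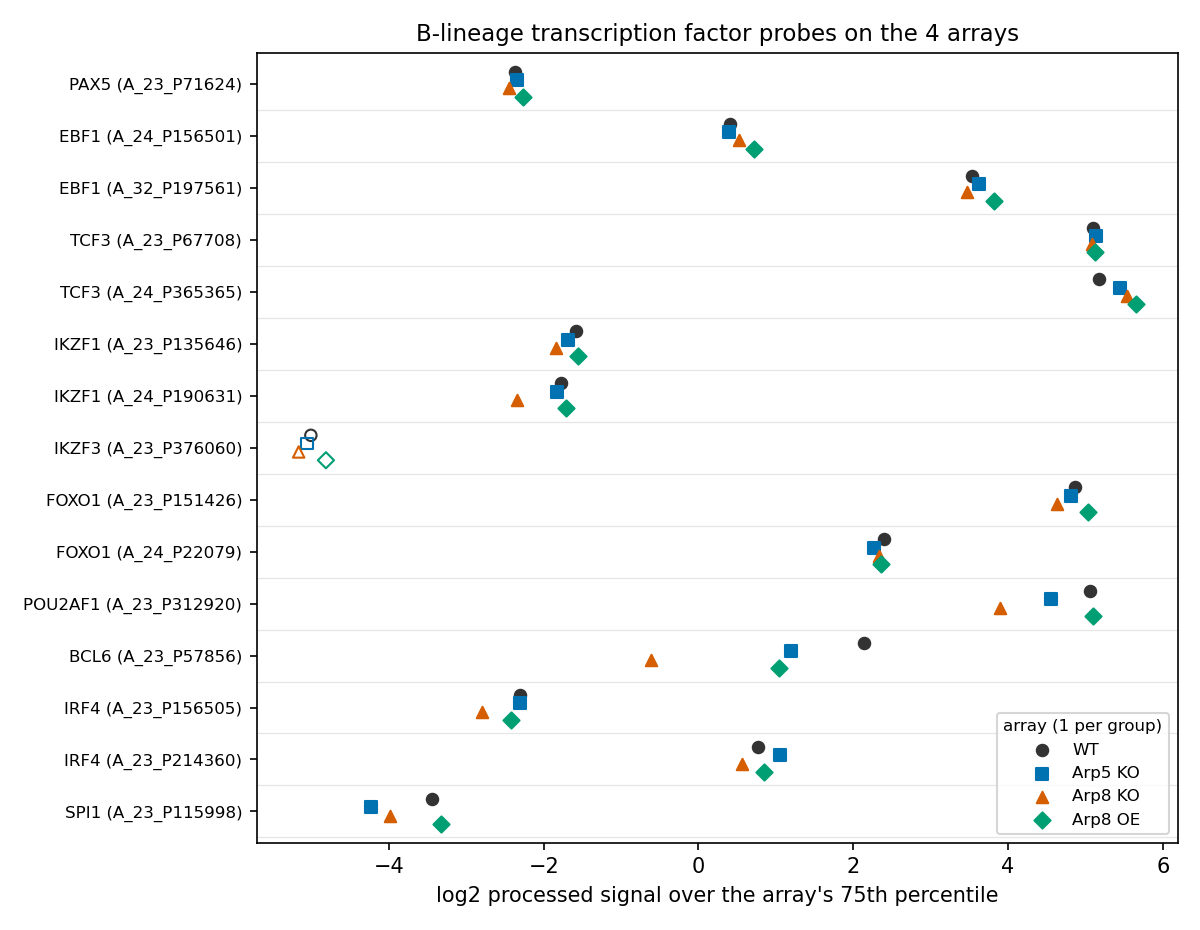
Levels of the 15 probes of the B-lineage transcription factors on the 4 arrays, as log2 of the processed signal over the array's 75th percentile; each marker is 1 array, and open markers are values not well above background, drawn at the floor. BCL6 spreads from -0.61 in Arp8 KO to 2.13 in WT and POU2AF1 from 3.89 to 5.10, whereas the PAX5 markers nearly coincide.

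Across the members, few probes were past 2-fold, as the plot of differences shows. In Arp5 KO, 0 of the 14 measured probes were past 2-fold from WT, against 3.7% of all probes tested. Among probes measured on both arrays, as all 14 were, the background was 1.59% (0.9% lower and 0.687% higher). In Arp8 KO, 2 of 14 were lower (BCL6 and POU2AF1) and 0 higher, where 7.71% of all probes tested and 5.39% of those measured on both arrays were past 2-fold (2.82% lower and 2.57% higher). In Arp8 OE, 1 of 14 was lower (BCL6), where the backgrounds were 5.11% and 2.79% (1.05% lower and 1.74% higher). Between other pairs of arrays measured on both, 1 member probe was over 2-fold lower in Arp8 KO than in Arp5 KO (background 1.82%), 2 were lower in Arp8 KO than in Arp8 OE (2.48%) and 0 were past 2-fold between Arp5 KO and Arp8 OE (2.92% in either direction). With counts of 2 or fewer, nothing is read from these shares about the members as a group.

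The median difference of the 14 probes was -0.22 in Arp8 KO, where the median over all probes tested was 0.026. It was -0.03 in Arp5 KO, which turned to 0.00 with median scaling, and 0.08 in Arp8 OE, against 0.0042 and 0.00024 over all probes. In Arp8 KO, 12 of the 14 probes were below WT, as were 46.8% of the 21783 probes well above background on all arrays. With Arp8 OE 11 were above WT, against 50.6% of all such probes. By order of level, Arp8 KO was the lowest array for 10 of the 14 probes (28.7% of all) and the highest for 0 (34% of all), and Arp8 OE was the highest for 9 (25.6% of all). Of the 14 probes, 10 are pairs from 5 genes and so do not count separately, and these comparisons share the WT array. The difference from WT was within the SD between spots for 4 member probes in Arp8 KO, 6 in Arp5 KO and 7 in Arp8 OE, against 21.7%, 36.6% and 25.7% of all such probes.

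**Figure D2:**
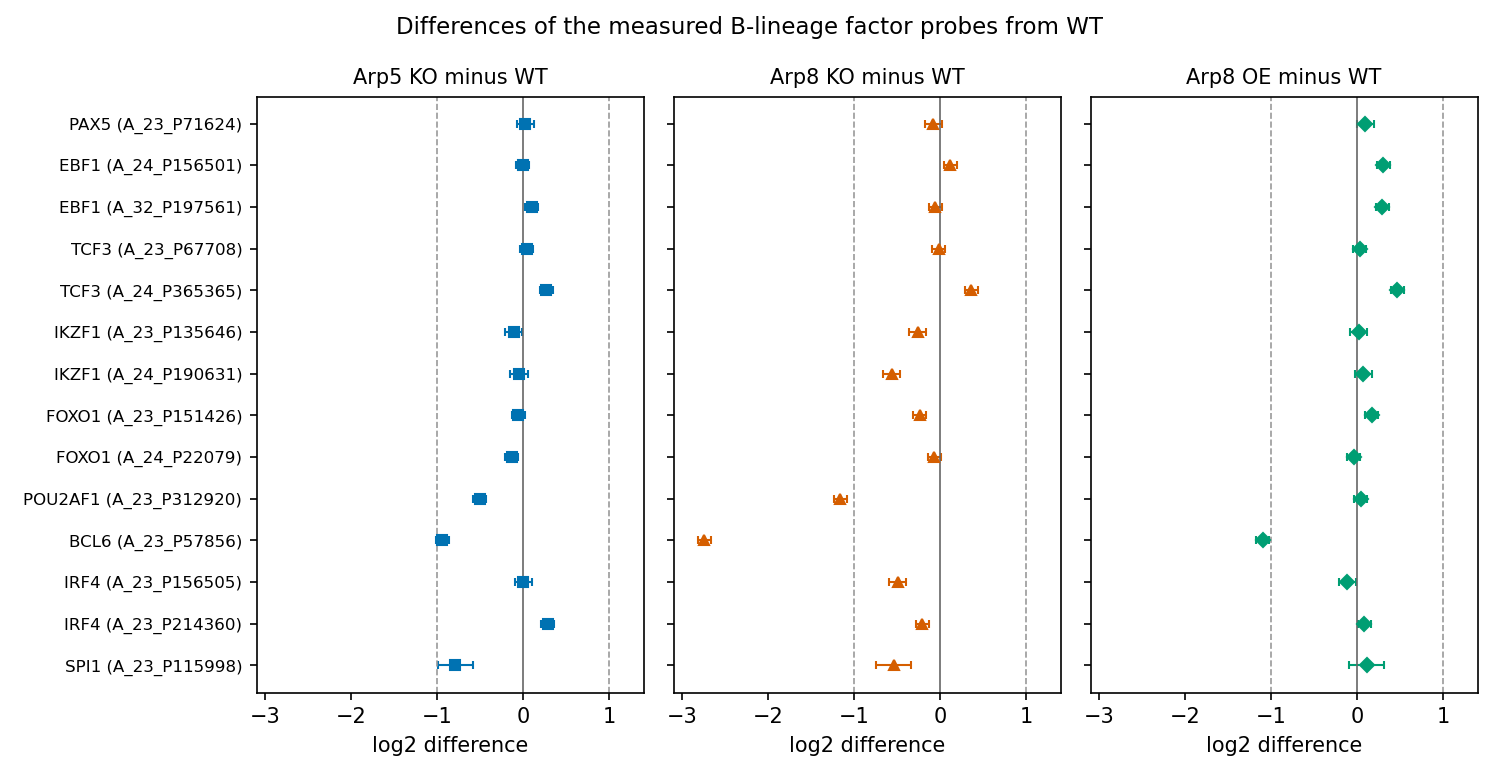
Log2 differences from WT of the 14 measured probes on the other arrays, with bars of 1 SD between spots at the probe's level; dashed lines mark 2-fold and there are no biological replicates. BCL6 (-2.74) and POU2AF1 (-1.17) pass 2-fold in Arp8 KO and BCL6 (-1.10) in Arp8 OE.

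None of the probes of PAX5, EBF1 and TCF3 was past 2-fold. PAX5 had a level of -2.36 in WT, -2.27 in Arp8 OE, -2.34 in Arp5 KO and -2.44 in Arp8 KO. None of the PAX5 differences from WT exceeded the SD between spots. EBF1 was measured by 2 probes. On the brighter probe (A_32_P197561) the level was 3.53 in WT, 3.82 in Arp8 OE, 3.63 in Arp5 KO and 3.47 in Arp8 KO. The other EBF1 probe gave 0.41, 0.71, 0.40 and 0.53. Arp8 OE was the highest array on both EBF1 probes, by 0.29 and 0.30 over WT and over 3 times the SD between spots, whereas the knockouts lay between -0.06 and 0.12. Differences of this size were common, as 18.9% and 17.9% of probes measured on both arrays rose further in Arp8 OE. For one EBF1 probe a neighbouring spot was bright on the WT array alone, and the other had 1 such spot on each knockout array.

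For TCF3 the probes disagreed. On A_23_P67708 the levels ran from 5.08 to 5.14 and no difference from WT exceeded the SD between spots. On A_24_P365365 the level was 5.18 in WT, 5.65 in Arp8 OE, 5.45 in Arp5 KO and 5.54 in Arp8 KO. WT was the lowest there, Arp8 OE lay 0.47 above it, and this probe had 2 adjacent spots bright on WT alone. The gap of 0.44 between the TCF3 probes in Arp8 OE was the largest among the members in that comparison, and no direction is given for TCF3.

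FOXO1, which activates the recombination genes and the IL-7 receptor gene in early B cells, had a level of 4.87 in WT, 5.04 in Arp8 OE, 4.81 in Arp5 KO and 4.63 in Arp8 KO on its brighter probe. Arp8 KO was the lowest, at -0.24 from WT. The other FOXO1 probe gave -0.07 in Arp8 KO, within the SD between spots, and -0.13 in Arp5 KO, so the probes did not give the same order.

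Of the Ikaros family, IKZF1 was measured by 2 dim probes and both were lowest in Arp8 KO. On A_24_P190631 the level was -1.78 in WT, -1.71 in Arp8 OE, -1.83 in Arp5 KO and -2.35 in Arp8 KO. Arp8 KO stood below 3 arrays that lay close together. Its difference from WT was -0.57, and -0.26 on the other probe. Normexp background correction moved these to -0.42 and -0.23. Without that correction, 9.54% and 23.5% of probes measured on both arrays fell further in Arp8 KO. The single IKZF3 probe was on none of the arrays well above background, so no level or difference of IKZF3 is given.

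IRF4, which restrains pre-B cell growth and promotes light chain rearrangement, was likewise lowest in Arp8 KO on both probes. The brighter probe (A_23_P214360) gave 0.77 in WT, 0.85 in Arp8 OE, 1.05 in Arp5 KO and 0.56 in Arp8 KO. Here Arp5 KO was the highest, by 0.28 over WT, but the dimmer probe gave 0.00 in Arp5 KO. In Arp8 KO the brighter probe gave -0.21 and the dimmer -0.49, which normexp background correction moved to -0.14 and -0.28. Without that correction, 27.1% and 12% of probes measured on both arrays fell further in Arp8 KO.

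SPI1 (PU.1), an ETS factor of myeloid and early B cells, showed another order. Its probe was dim, with a level of -3.45 in WT, -3.33 in Arp8 OE, -4.24 in Arp5 KO and -3.99 in Arp8 KO, or processed signals of 67.5, 64.3, 39.2 and 41.3. Both knockouts lay below WT and Arp8 OE. The difference from WT was -0.54 in Arp8 KO and -0.79 in Arp5 KO, with an SD between spots of 0.21 at this level, and the gap of 0.25 between the knockouts was close to that SD. After normexp background correction these were -0.22 and -0.41. Without that correction, 10.3% of probes measured on both arrays fell further in Arp8 KO and 1.49% in Arp5 KO.

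**Figure D3:**
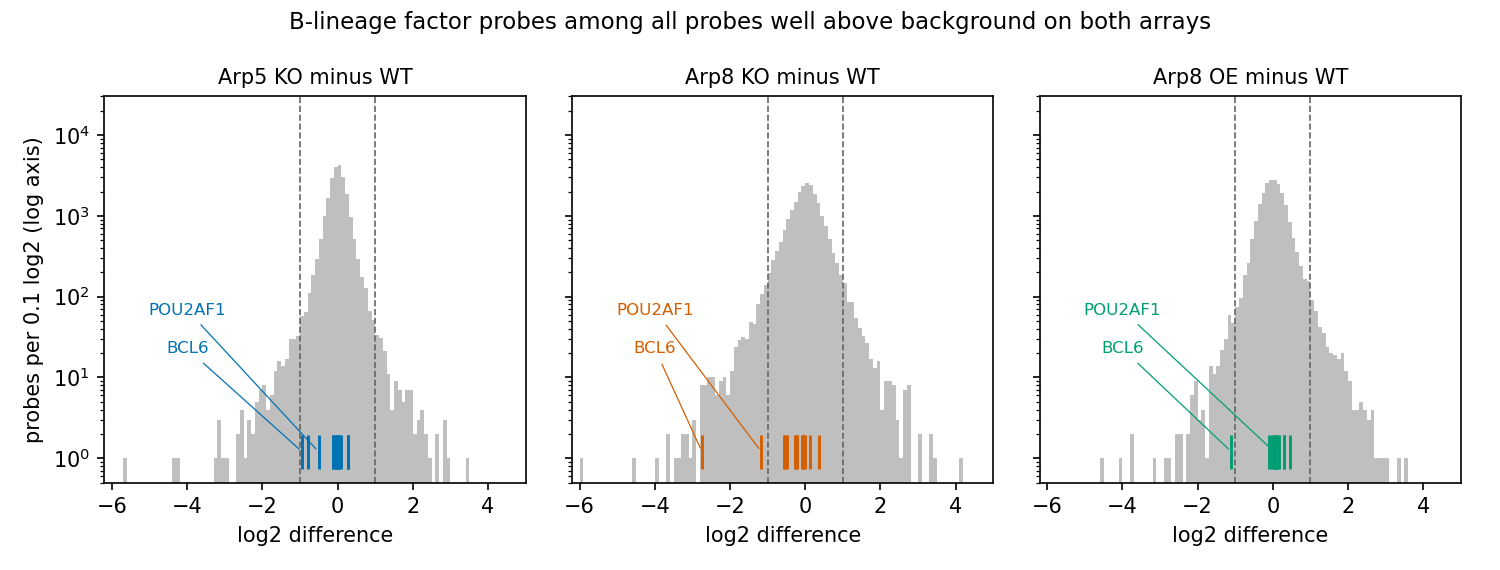
Log2 differences from WT of all probes well above background on both arrays compared (grey, 0.1 log2 per bar, log count axis), with the 14 member probes as coloured ticks; dashed lines mark 2-fold. In Arp8 KO the BCL6 tick lies at -2.74 in the lower tail, and most other member ticks lie near the centre.

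The genes whose pattern over the 3 differences from WT came nearest to BCL6, among 16576 probes with a symbol and well above background on every array, were SPTLC3, EYA4 and GABARAPL1. The Euclidean distances were 0.30, 0.30 and 0.37 on the log2 scale. SPTLC3, a subunit of the enzyme that starts sphingolipid synthesis, was at -2.79 in Arp8 KO, -1.14 in Arp5 KO and -0.87 in Arp8 OE. EYA4, a transcriptional coactivator, was at -2.52, -0.76 and -1.20 in the same order, and GABARAPL1, an autophagy protein of the ATG8 family, at -2.63, -1.29 and -1.15. Other probes of EYA4 and GABARAPL1 gave -2.46 and -2.53 in Arp8 KO. The other SPTLC3 probe was at least 3.25-fold below WT in Arp8 KO and gave -0.71 in Arp5 KO and -0.59 in Arp8 OE, and the SPTLC3 probe nearest to BCL6 had 1 adjacent spot bright on Arp5 KO alone. The level of that nearest probe in Arp8 KO was -4.99. This was close to -5.17, the lowest value of a probe well above background on that array. This likeness rests on 4 arrays and is a description only.

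Partners and relatives of the members were then described from lists, whose counts stand beside backgrounds of 7.71% (Arp8 KO), 3.7% (Arp5 KO) and 5.11% (Arp8 OE) of all probes tested past 2-fold. Among the E proteins and their ID inhibitors, 9 probes of 6 genes were tested. In Arp8 KO 1 probe was over 2-fold higher (ID3) and 1 lower (ID1), while 0 passed on the other arrays. The median difference in Arp8 KO was -0.12, which turned to 0.08 without probes beside a bright spot and to 0.10 against Arp8 OE, so no direction is given for this list. ID3 and ID1 both keep E proteins such as TCF3 from DNA. ID3 had a level of 1.51 in WT, 1.76 in Arp8 OE, 1.69 in Arp5 KO and 3.09 in Arp8 KO, which stood apart from the other arrays at 2.98-fold above WT. ID1 went the other way, with -1.13, -1.63, -1.30 and -2.29. TCF4, a relative of TCF3, was at 0.63 and 0.89 from WT in Arp8 KO on its 2 probes, short of 2-fold.

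Among the partners of SPI1, IRF4 and POU2AF1, 3 of 11 probes tested were over 2-fold lower in Arp8 KO, 2 of them for SPIB and 1 for POU2F2, and 0 were in Arp5 KO and 1 in Arp8 OE. The median was -0.16 in Arp8 KO and 0.08 in Arp5 KO. SPIB, an ETS factor close to SPI1, had a level of 2.43 in WT, 1.41 in Arp8 OE, 2.38 in Arp5 KO and 0.03 in Arp8 KO on its brighter probe. WT and Arp5 KO differed by less than the SD between spots, and Arp8 KO was 5.27-fold below WT. The dimmer SPIB probe gave -1.05 in Arp8 KO. POU2F2, the octamer factor Oct-2 that POU2AF1 binds, was well above background in neither Arp8 KO, at least 2.53-fold below WT, nor Arp8 OE, at least 1.58-fold below it. In Arp5 KO it was at 0.50. IRF8 and SPIC were on no array well above background.

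The remaining lists of regulators held few probes past 2-fold. Of the Ikaros and FOXO relatives, 0 of 7 probes passed in either knockout, and 1 passed in Arp8 OE. The median in Arp8 KO was -0.24, but 0.42 without probes beside a bright spot and 0.09 with 1 mean per gene, and in Arp5 KO it was 0.26. The probe past 2-fold was a dim IKZF2 probe at 1.88, which had 1 adjacent spot bright on Arp8 OE alone, while the other IKZF2 probes were at -0.26 and -0.33. The other B-lineage regulators (LEF1, SOX4, MYB, RUNX1, BCL11A, BACH2, ERG and GFI1) had 0 of 15 past 2-fold, with medians of 0.17 in Arp8 KO, 0.18 in Arp5 KO and 0.30 in Arp8 OE. Against Arp8 OE the medians of the knockouts for that list were -0.17 and -0.10.

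Target genes of the members came next. In Arp5 KO 0 of 19 probes were past 2-fold, in Arp8 KO 1 of 20 was higher and 3 were lower, and with Arp8 OE 2 of 18 were higher and 1 was lower. CD22, an inhibitory receptor of B cells, had a level of 0.06 in WT, -0.67 in Arp8 OE, -0.83 in Arp5 KO and -2.52 in Arp8 KO. Arp8 KO lay 5.99-fold below WT, with the other arrays between. IL7R, the IL-7 receptor chain, was 3.23-fold lower in Arp8 KO, whereas Arp5 KO lay at -0.03 and Arp8 OE at -0.85.

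VPREB1, a surrogate light chain, gave 5.25 in WT and Arp8 OE, 4.83 in Arp5 KO and 3.99 in Arp8 KO, the order of arrays seen for POU2AF1. DNTT, the terminal transferase, was above WT on each of the other arrays, at 1.78 in Arp8 KO, 0.84 in Arp5 KO and 1.02 in Arp8 OE. RAG1, of the recombinase, was at 0.98 and 0.79 on its probes in Arp8 KO, and 1 of these probes was 2.15-fold higher in Arp8 OE. KLF2, a target of FOXO1, was at -1.86 in Arp8 OE and -0.94 in Arp8 KO on its brighter probe, while its dim probe gave -0.22 and 0.08.

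**Figure D4:**
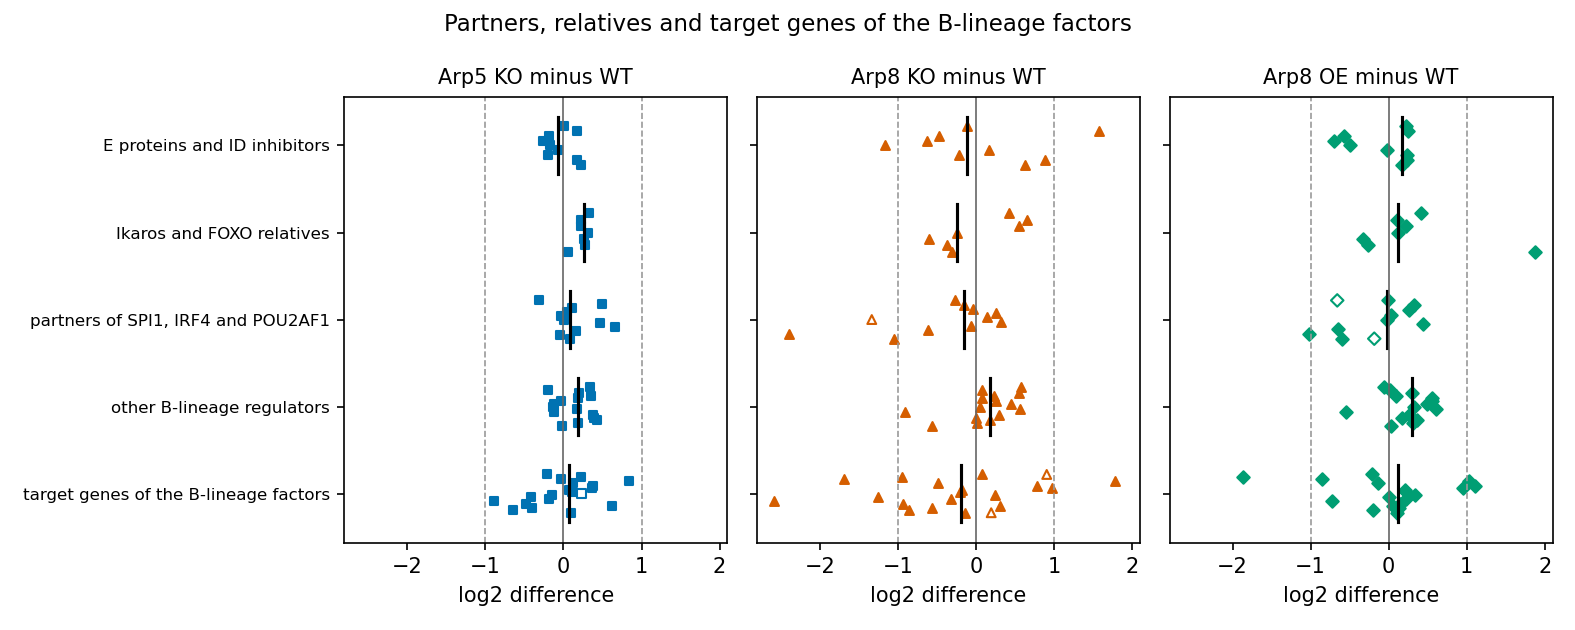
Log2 differences from WT of the probes in 5 lists of partners, relatives and target genes on the other arrays; filled markers were well above background on both arrays, open markers are bounds, black bars are list medians over the markers drawn and dashed lines mark 2-fold. In Arp5 KO 0 probes pass 2-fold, and in Arp8 KO the lowest are CD22 (-2.58) and SPIB (-2.40) and the highest is DNTT (1.78).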

How the data were processed

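RNA of 4 cultures was measured with Cy3 on one-colour Agilent arrays, all on 1 slide with 1 scan time. The deposited intensity values came from Agilent Feature Extraction (version 10.10.1.1), background-subtracted and detrended within each array. The authors' series matrix holds the same intensity times 1 factor per array, from 1.995 to 2.29.

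Outlier spots (69 to 76 per array) were left out and spots of a probe averaged. A probe counted as well above background if at least 50% of its spots were flagged so, and was tested where this held for either array of a comparison. Dim values were raised to a floor, the lowest value of a probe well above background on that array. Symbols came from RefSeq accessions (27210 of 41000 probes matched, GRCh38.p14). The array design names hg19, and no coordinates were taken from it. Counts used a 2-fold threshold and no test was run. An adjacent spot lay within 20 pixels and was called bright if over 2-fold above the 3 other arrays. EBF and ETS motifs were also tried in the promoters and are not reported.

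Members and lists were chosen with earlier results of these data known. The genes named were all members, ACTR5, ACTR8 and HMOX1, list genes past 2-fold (at most 4 per list), defining markers and the 3 genes nearest in pattern. RAG1, TCF4, IRF8 and SPIC fall outside that rule and were named after their values were seen. Alternatives were median scaling, quantile normalization, cyclic loess, normexp (offset 50, on the median spot signal), the series matrix, other filters, gene means, a 4-fold threshold, Arp8 OE as the reference and leaving out probes beside a bright spot. Python 3.11.15 and limma 3.58.1 were used, and the computation was tested on simulated data.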

Additional observations from a re-analysis of the deposited data

How the results depend on the processing

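Of 732 values recomputed, 653 moved by less than the SD between spots (0.08) or, for counts, by at most 1.5 times. The other 79 moved further. Many of the 653 could hardly move. The series matrix differs by 1 factor per array, and the filters do not alter a member probe well above background on all arrays. Sign was followed only for BCL6 in Arp8 KO and Arp8 OE and POU2AF1 in Arp8 KO, and 0 of these changed sign. Smaller differences could change sign. BCL6 in Arp5 KO went from -0.94 to 0.16 with Arp8 OE as the reference. With a 4-fold threshold, 1 member probe passed in Arp8 KO (BCL6) and 0 in Arp8 OE. Without the 4 of 15 member probes beside a bright spot, BCL6 among them, the counts were 1 in Arp8 KO (POU2AF1) and 0 in Arp8 OE. Of all probes, 12.7% lay beside such a spot. Against Arp8 OE the median of the member probes was -0.32 in Arp8 KO and -0.13 in Arp5 KO, and with 1 mean per gene it was -0.35 in Arp8 KO. Over the settings that kept WT as the reference, BCL6 lay between -2.76 and -2.55 in Arp8 KO and POU2AF1 between -1.20 and -1.11. No paired analysis was possible because each group had 1 array, and no array could be left out for the same reason. No member's difference was therefore set against the spread between cultures. Dim probes are limited by their signal over background, and normexp moved SPI1 in both knockouts and the dimmer IRF4 probe in Arp8 KO by over 1.5 times.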
